A study of Homo sapiens with 8 samples.

Results

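The mitochondrial respiratory chain subunits were examined across 8 RNA-Seq libraries of BEAS-2B, a human lung epithelial line that was immortalised from bronchial tissue. Genes were taken by symbol, as those that begin with NDUFA, NDUFB, NDUFC, NDUFS or NDUFV and a digit, SDHA to SDHD, and those that begin with UQCR, COX4 to COX8 or ATP5, and names with a hyphen were dropped. This gave 88 of the 25411 genes listed, with 38 in complex I, 4 in complex II, 10 in complex III, 17 in complex IV and 19 in complex V. The study asked which expression changes outlast exposure to nickel, and each of its 4 groups held 2 biological replicates. Untreated cells (UT) were the control. The Ni-E group was nickel-exposed, with NiCl2 at 100 µM in the medium over 6 weeks. The Ni-W group, nickel-washed-out, shared that exposure of 6 weeks, after which colonies from single cells were grown out in medium without nickel, 1 randomly chosen population being used after more than 6 months. HCl3 cells carried the treatment text of Ni-W, but neither their time without nickel nor their relation to Ni-W was labelled. Since Ni-W descended from 1 cell, a property of that clone and a property of wash-out cannot be told apart. The labels placed both Ni-E libraries in experiment 2 and the HCl3 libraries in experiments 3 and 4, so experiment and group cannot be told apart either.

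The respiratory chain sits in the inner mitochondrial membrane. Complexes I and II pass electrons from NADH and succinate to ubiquinone, complex III passes them on to cytochrome c, complex IV reduces oxygen, and complex V uses the proton gradient that results to make ATP. All genes examined are nuclear; the subunits encoded by mitochondrial DNA were not part of the symbol rule. Nickel ions are known to interfere with the oxygen sensing enzymes that restrain hypoxia-inducible factor (HIF), which in turn controls some mitochondrial genes.

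The promoters of 4 subunits whose lower level in washed-out cells is described in the next paragraphs are shown first. NRF1 and the ETS factor GABP are known regulators of this gene class, and HIF is linked to nickel. These 4 are examples and do not stand for all lowered subunits. UQCRC1 passed against UT in HCl3 alone, and NDUFB6, COX7A2L and ATP5B, which passed in both washed-out groups, are not shown. Each sequence is the 250 bases before the start of the gene, 5′ to 3′ on the strand of the gene, from RefSeq on the build GRCh38.p14. Capitals mark GCGCA and GCGC with any 1 base between them (NRF1), CCGGAAG (ETS) and ACGTG or GCGTG (the HIF core), each searched on both strands.
NDUFV2 (chr18:9102449-9102698, + strand): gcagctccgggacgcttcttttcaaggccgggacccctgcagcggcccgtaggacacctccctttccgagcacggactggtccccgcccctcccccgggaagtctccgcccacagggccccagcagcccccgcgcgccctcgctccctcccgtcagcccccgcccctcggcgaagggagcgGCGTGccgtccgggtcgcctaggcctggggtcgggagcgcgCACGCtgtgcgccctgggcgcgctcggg
SDHB (chr1:17054033-17054282, − strand): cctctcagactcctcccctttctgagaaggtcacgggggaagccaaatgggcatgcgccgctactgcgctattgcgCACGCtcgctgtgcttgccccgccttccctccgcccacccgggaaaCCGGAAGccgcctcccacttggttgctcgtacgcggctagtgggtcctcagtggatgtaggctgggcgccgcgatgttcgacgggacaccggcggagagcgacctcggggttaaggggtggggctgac
UQCRC1 (chr3:48609647-48609896, − strand): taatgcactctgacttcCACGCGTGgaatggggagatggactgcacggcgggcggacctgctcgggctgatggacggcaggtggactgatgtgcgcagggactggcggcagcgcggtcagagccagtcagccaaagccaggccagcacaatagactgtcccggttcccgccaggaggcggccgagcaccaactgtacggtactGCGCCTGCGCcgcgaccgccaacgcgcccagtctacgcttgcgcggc
UQCRFS1 (chr19:29213152-29213401, − strand): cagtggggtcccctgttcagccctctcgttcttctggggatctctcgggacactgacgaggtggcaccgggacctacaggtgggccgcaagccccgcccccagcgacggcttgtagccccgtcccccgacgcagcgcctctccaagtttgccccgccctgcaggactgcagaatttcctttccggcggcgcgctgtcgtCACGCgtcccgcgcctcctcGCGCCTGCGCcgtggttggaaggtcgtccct

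Both complex III subunits hold 1 copy of the NRF1 letters, SDHB holds 1 copy of the ETS letters and NDUFV2 holds neither. The 2 GCGTG matches of UQCRC1 overlap in one stretch, since the letters were read on both strands. A RefSeq window was found for 69 of the 88 members, 83 windows in all. The NRF1 letters were in 16.9% of these windows, against 5.07% of all 35116 windows and 8.58% of the 16055 windows of genes with a mean of at least 10 reads. For the ETS letters the shares were 21.7, 8.52 and 13.7%, and for either HIF core 54.2, 43.2 and 55.0%. The matches describe letters only and were not tested against expression.

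Each library held between 26383920 and 45692298 reads, and the members took between 0.948 and 1.32% of them. Reads without molecular identifiers are not independent molecules, so depth limits counting error only, and in bulk samples fewer cells of a type and less RNA per cell cannot be told apart. Epithelial keratin genes were high in every library (KRT8, 192 to 310.3 RPKM, reads scaled to gene length and library size), but the epithelial cadherin CDH1 was at 0.11 RPKM or less and KRT19 at 0.78 or less. VIM ran from 816 to 1527 RPKM and COL1A1 from 178 to 454. The leukocyte gene PTPRC, the endothelial gene PECAM1 and the muscle gene MYH7 were at 0.04 RPKM or less. Of the 9 leukocyte, endothelial and muscle markers read, CD68 was at 14.3 to 21.8 RPKM and the other 8 at 0.13 or less.

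Members are short, with a median transcript length of 0.944 kb against 3.22 kb over expressed genes, and this matters for one UT library. Among the 12 members under 0.6 kb, UT replicate 1 stood above UT replicate 2 in all 12, by a median of 0.81 on the log2 scale, and among the 31 of 0.6 to 1 kb by 0.461 in all 31. Above 2 kb the median was 0.039. All expressed genes showed the same order by length, 0.522 under 0.6 kb and −0.034 above 2 kb. Ni-W replicate 1 stood above Ni-W replicate 2 in the same way, by 0.463 in the shortest members and 0.087 in the longest, while the same bins gave −0.024 and 0.022 in Ni-E and −0.122 and −0.054 in HCl3. Counts with the trends of GC content and length removed stand beside each comparison, and the part of length in the results was not tested further.

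**Figure D1:**
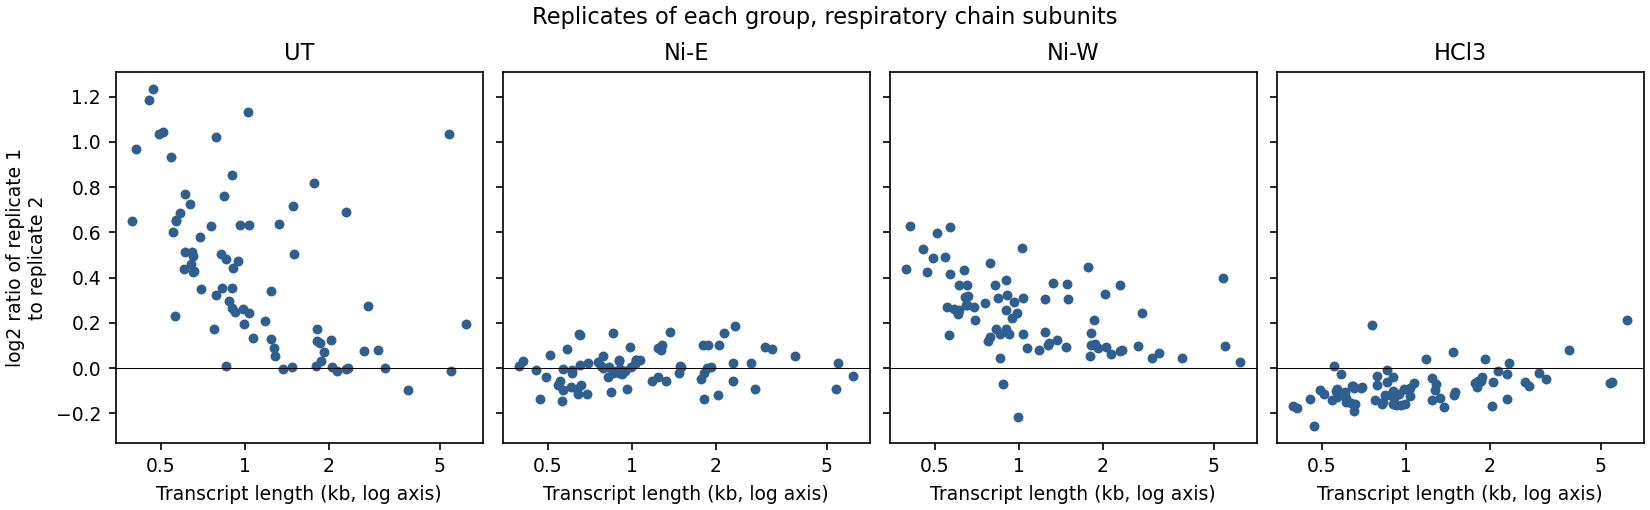
Each point is a member with at least 1 RPKM in every library, placed by transcript length in kb on a log axis and by the log2 ratio of replicate 1 to replicate 2, with 1 panel per group. Short members lie high in UT and Ni-W, and near 0 in Ni-E and HCl3.

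During exposure, 1 of 81 members tested passed an adjusted P of 0.05 against UT, with the background at 6.08% of all genes tested higher and 5.52% lower (11.6% in either direction). It was also the 1 member past 1.5-fold, where the background was 5.8%. The median log2 fold change of the members was −0.01, beside −0.00 over all genes tested. Without UT replicate 1 the count was 6, all higher, without UT replicate 2 it was 19, all lower, and without either Ni-E replicate it was 0. With GC and length trends removed, 2 members were higher and 2 lower (no background share is given), and the 1 call was not among them. That member was NDUFA4L2, a paralog of NDUFA4 that is known as a HIF target and is counted with complex I by its symbol. Its level was 0.64 and 0.69 RPKM (UT), 1.66 and 1.98 (Ni-E), 0.44 and 0.41 (Ni-W) and 0.31 and 0.18 (HCl3). Both Ni-E libraries were above all others, at 76 and 90 reads against 32 or fewer elsewhere. It rose by 1.41 ± 0.47 on the log2 scale (SE, n = 2 per group, DESeq2 adjusted P = 0.0274) and differed from Ni-E by −2.08 ± 0.48 in Ni-W (adjusted P = 9.31e-05) and by −2.93 ± 0.54 in HCl3 (adjusted P = 6.28e-07). The gene (chr12:57628686-57634475 on hg19, − strand) shares 33 bases with SHMT2 on the opposite strand, and SHMT2, a mitochondrial enzyme of one-carbon metabolism, was also highest in Ni-E and lower than UT in both washed-out groups, at a far higher level. SHMT2 gave 143 and 138 RPKM (UT), 209 and 234 (Ni-E), 99.9 and 94.1 (Ni-W) and 97.4 and 101.4 (HCl3). Whether reads were assigned by strand was not stated, so reads of the pair in those bases cannot be told apart. The rise in Ni-E passed under 4 of 15 alternatives, whereas both differences from Ni-E passed under each alternative run.

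**Figure D2:**
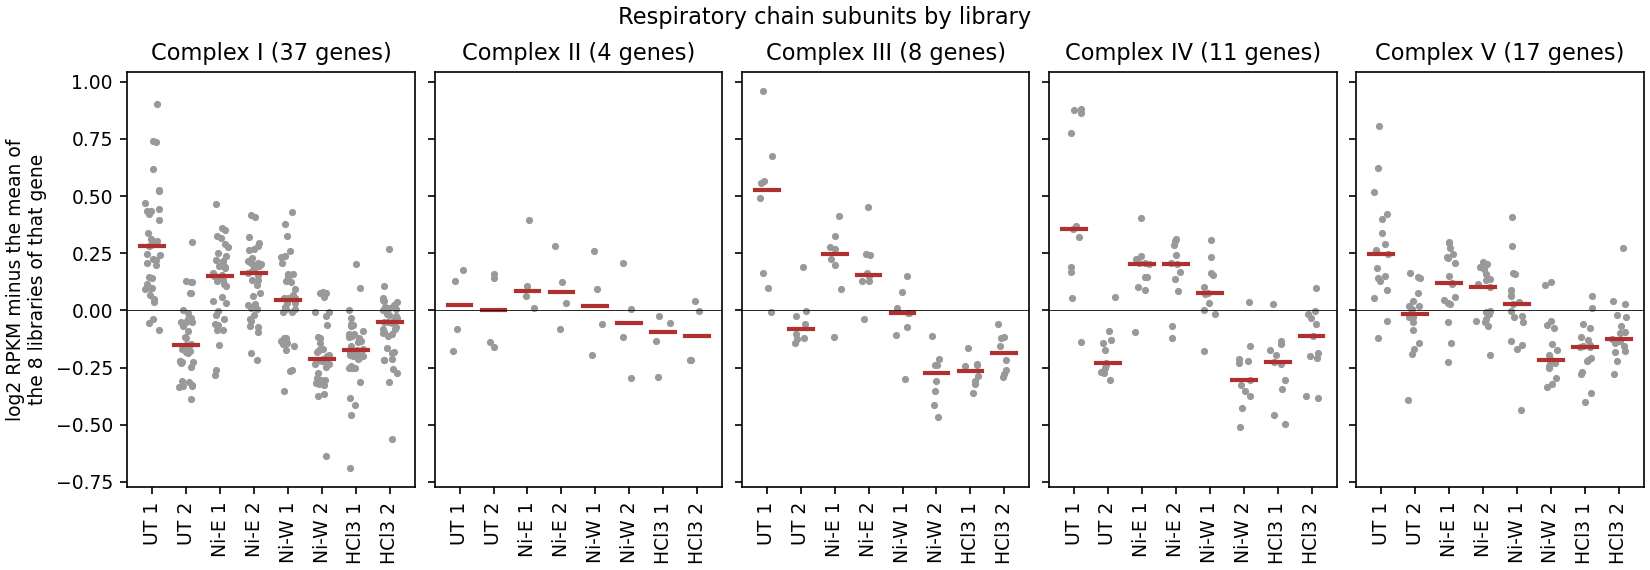
For each member with at least 1 RPKM in every library, log2 RPKM is plotted minus the gene's own mean over the 8 libraries, by library and by complex (grey points, 1 per gene), with the median as a red bar. UT replicate 1 is the highest in complexes I, III, IV and V, and Ni-W replicate 2 and both HCl3 libraries have medians below 0 in all 5 complexes. UT replicate 2 is also below 0 in complexes I, III, IV and V, and Ni-W replicate 1 is above 0 in complexes I, II, IV and V.

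In washed-out cells more members were lower than higher. Ni-W had 13 of 82 members lower than UT and 2 higher, against a background of 13.6% of all genes lower and 17.5% higher, so the lower share (15.9%) was near the background and the higher share (2.44%) was below it. The median log2 fold change was −0.27, against 0.01 over all genes, and 70 of the 82 values were below 0. HCl3 had 24 of 83 members lower than UT (28.9%, background 14.3%) and 1 higher (1.2%, background 17.1%), with a median of −0.32. Both comparisons use the same 2 UT libraries, so they are not independent of each other. Of these calls 2 in Ni-W and 3 in HCl3 also reached 1.5-fold (background 15.7 and 14.8%). In either direction the background was 31.1 and 31.4%. The libraries of 25 members in Ni-W and 40 in HCl3 lay wholly below UT (background 29.5 and 28.1%), and those of 6 and 6 wholly above (background 38.1 and 40.2%). Without UT replicate 1 the median was −0.02 in Ni-W, with 10 members called, and −0.14 in HCl3, with 25 called, and without UT replicate 2 the counts were 30 and 59. The Ni-W count was 6 without Ni-W replicate 1 and 2 without Ni-W replicate 2, and the HCl3 count was 2 without HCl3 replicate 1 and 4 without HCl3 replicate 2. With the trends of GC content and length removed per library, 12 members were lower and 8 higher in Ni-W (median −0.07) and 20 lower and 4 higher in HCl3 (median −0.10). In that fit 10 of the 13 members lower in Ni-W and 9 of the 24 lower in HCl3 kept their call. The background shares above belong to the fit of all 4 libraries with no trend removed. None is given for the other fits.

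Members were also set beside genes of like length. Among the 22 members of 1 to 2 kb the median log2 fold change was −0.28 in Ni-W and −0.37 in HCl3, beside −0.10 and −0.07 over all genes of that length. Under 0.6 kb the members were at −0.28 and −0.34, and all genes of that length at −0.35 and −0.45. From 0.6 to 1 kb the members were at −0.25 and −0.30 and all genes at −0.22 and −0.22, and above 2 kb the members were at −0.20 and −0.19 and all genes at 0.00 and −0.01. These medians are descriptions and were not tested.

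**Figure D3:**
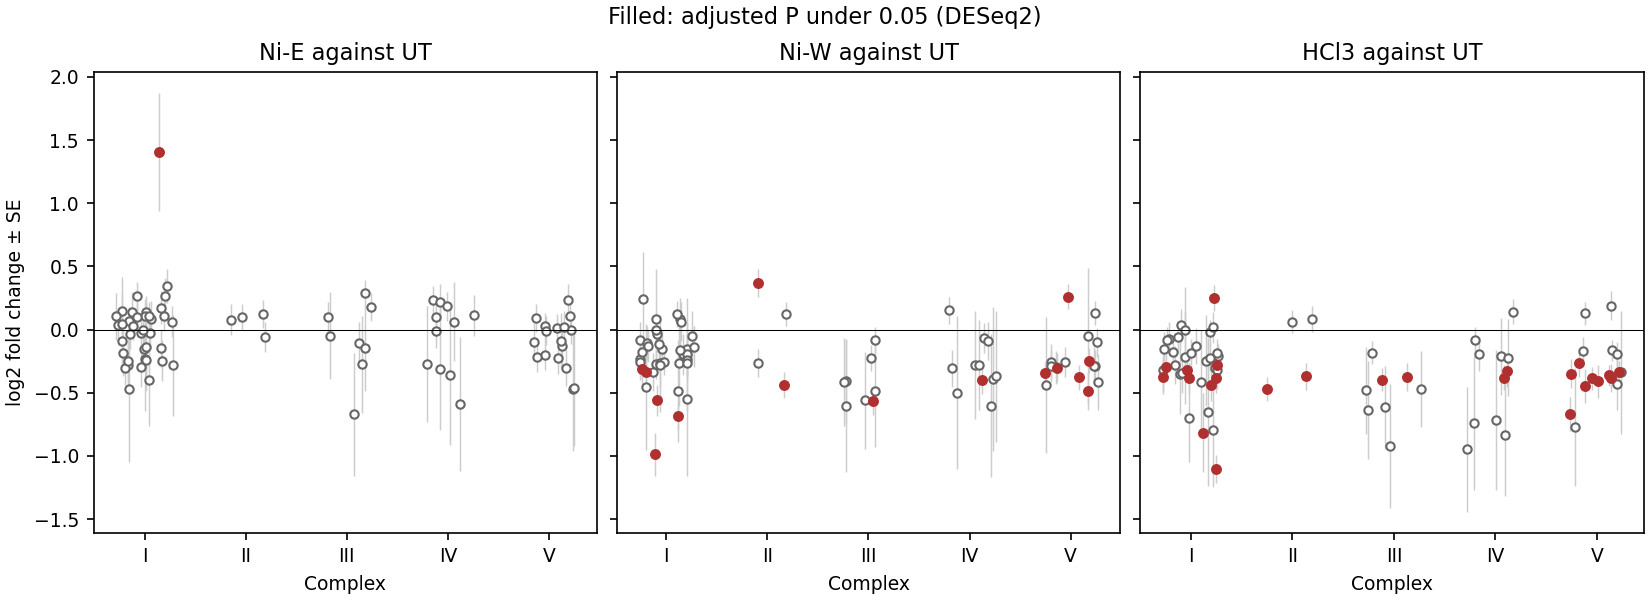
Log2 fold change with its SE for each member with a mean normalised count of at least 50, by complex, in the 3 comparisons with UT; filled points passed an adjusted P of 0.05 (DESeq2). The single filled point in Ni-E is NDUFA4L2, and most filled points in Ni-W and HCl3 are below 0.

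The comparison with Ni-E, which does not use the UT libraries, gave more calls. Ni-W had 36 of 82 members lower than Ni-E (43.9%, background 19.4%) and 5 higher (6.1%, background 19.8%). HCl3 had 50 of 83 lower (60.2%, background 19.2%) and 1 higher (1.2%, background 18.4%). The medians were −0.25 and −0.32 on the log2 scale, and 5 and 6 of the calls reached 1.5-fold (background 20.5 and 17.1%). In either direction the background was 39.2 and 37.6%. The libraries of 47 members in Ni-W and 61 in HCl3 lay wholly below Ni-E (background 36.1 and 34.9%), and those of 9 and 6 wholly above (background 36.9 and 38.2%). Both comparisons use the same Ni-E libraries. Under 0.6 kb the members were at −0.15 (Ni-W) and −0.33 (HCl3) against Ni-E, and all genes of that length at −0.26 and −0.37. From 0.6 to 1 kb the members were at −0.31 and −0.29 and all genes at −0.16 and −0.22. From 1 to 2 kb the members were at −0.35 and −0.38 and all genes at −0.20 and −0.19. Above 2 kb the members were at 0.00 and −0.17 and all genes at 0.03 and 0.02. The part of length was not tested. With the GC and length trends removed, 20 members were lower and 11 higher in Ni-W, and 25 lower and 7 higher in HCl3. The medians of that fit were −0.09 and −0.12, and no background share is given for it. The Ni-W count was 18 without Ni-E replicate 1 and 18 without Ni-W replicate 2, and the HCl3 count was 16 without HCl3 replicate 1 and 33 without HCl3 replicate 2.

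In complex I, which oxidises NADH, 5 of 38 members were lower than UT in Ni-W and 9 in HCl3, and 17 and 23 were lower than Ni-E. The background was 13.6 and 14.3% of all genes lower than UT and 19.4 and 19.2% lower than Ni-E, so the Ni-W count against UT was near it. NDUFV2, an iron-sulfur subunit of the NADH-oxidising tip, gave 155 and 132 RPKM (UT), 148 and 143 (Ni-E), 96.4 and 87.5 (Ni-W) and 66.6 and 72.7 (HCl3). The washed-out libraries all lay under the other 4, and those of HCl3 under those of Ni-W. NDUFV2 fell by 0.68 ± 0.12 in Ni-W (log2, adjusted P = 1.33e-07) and by 1.10 ± 0.11 in HCl3 (adjusted P = 3.54e-21) against UT, and in every fit run both calls held. It lies at chr18:9102628-9134343 (hg19, + strand), and the median of other genes in its window, a fixed bin of 10 Mb on the chromosome, was −0.33 in Ni-W and −0.52 in HCl3. An unnamed locus, LOC101927275, overlaps it on the opposite strand.

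NDUFB6, an accessory subunit of the membrane arm, gave 123 and 80.5 RPKM (UT), 92.5 and 97.9 (Ni-E), 57.8 and 47.5 (Ni-W) and 56.6 and 63.6 (HCl3). Every washed-out library was under every library of UT and Ni-E, although the UT pair was wide. It fell by 0.99 ± 0.17 in Ni-W (adjusted P = 1.26e-07) and by 0.82 ± 0.31 in HCl3 (adjusted P = 0.0312), and its window on chromosome 9 had medians of −0.66 and −0.30. NDUFB10, another accessory subunit of that arm, fell by 0.56 ± 0.12 and 0.38 ± 0.12, with window medians of −0.17 and −0.02.

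The other redox subunits of complex I moved less. NDUFV1, which holds the NADH site, gave 64.1 and 57.5 RPKM (UT), 75.7 and 76.1 (Ni-E), 57.4 and 53.9 (Ni-W) and 58.2 and 61.2 (HCl3). Its Ni-E libraries were the highest, and it passed only against Ni-E, at −0.44 ± 0.10 in Ni-W (adjusted P = 2.83e-05) and −0.36 ± 0.08 in HCl3 (0.000148). NDUFS7 and NDUFS8, iron-sulfur subunits near the quinone site, likewise stood lower than Ni-E in both, with NDUFS7 at −0.54 and −0.34 and NDUFS8 at −0.42 and −0.26. NDUFS8 alone of the pair passed against UT, in Ni-W (−0.34 ± 0.12, DESeq2 adjusted P = 0.0209), a call that held under 7 of 14 alternatives. NDUFS1, the large subunit of the redox arm, had values against UT of −0.25 ± 0.11 (Ni-W) and −0.02 ± 0.10 (HCl3), neither past the test. NDUFA10, an accessory subunit, was the 1 member higher in HCl3 than in UT (0.25 ± 0.10, adjusted P = 0.0468), and its window median was 0.38. NDUFA4, which carries a complex I symbol but is now placed with complex IV (current symbol COXFA4), was 0.51 ± 0.12 higher in Ni-W than in Ni-E (adjusted P = 0.000184) and had values of 0.24 ± 0.37 and −0.00 ± 0.34 against UT.

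Complex II, the succinate dehydrogenase, split by subunit. SDHB, its iron-sulfur subunit, gave 134 and 130.2 RPKM (UT), 155 and 144 (Ni-E), 103 and 96.3 (Ni-W) and 96.4 and 101.5 (HCl3), with no overlap between the washed-out libraries and the rest. It fell by 0.44 ± 0.10 in Ni-W (adjusted P = 0.000163) and by 0.47 ± 0.09 in HCl3 (adjusted P = 6.85e-06), while its window (chr1, 17345225 to 17380665 on hg19 for the gene) had medians of −0.06 and 0.02. SDHC, a membrane anchor, went the other way in Ni-W, with 19.9 and 20.2 RPKM (UT), 22.7 and 21.3 (Ni-E), 27.0 and 26.0 (Ni-W) and 21.7 and 22.5 (HCl3). The Ni-W pair stood above all other libraries, the rise against UT was 0.37 ± 0.11 (adjusted P = 0.0045), and the window median was 0.24. SDHD, the second anchor, fell in HCl3 (−0.37 ± 0.10, adjusted P = 0.00219) and was at −0.26 ± 0.11 in Ni-W, which did not pass. SDHA, the flavoprotein, ran from 97.2 to 114 RPKM over the 8 libraries and passed in none of the 6 comparisons, with log2 fold changes between −0.06 and 0.12.

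Complex III hands electrons from ubiquinol to cytochrome c. Of its 10 members, 1 was lower than UT in Ni-W and 2 in HCl3, and 6 and 8 were lower than Ni-E, where 13.6, 14.3, 19.4 and 19.2% of all genes were lower. UQCRFS1, the Rieske iron-sulfur protein, gave 63.7 and 64.7 RPKM (UT), 75.7 and 67.3 (Ni-E), 46.2 and 42.7 (Ni-W) and 48.3 and 54.5 (HCl3). All 4 washed-out libraries were below the rest. It fell by 0.57 ± 0.11 in Ni-W (DESeq2 adjusted P = 5.77e-06) and by 0.38 ± 0.11 in HCl3 (adjusted P = 0.00272). The Ni-W call held in every fit run, and the HCl3 call under 9 of 15 alternatives. UQCRC1, a core protein of the matrix side, gave 149.9 and 139.7 RPKM (UT), 176 and 192 (Ni-E), 133 and 121 (Ni-W) and 112 and 117 (HCl3). It passed against UT in HCl3 alone (−0.40 ± 0.09, adjusted P = 0.00015), where its window on chromosome 3 had a median of −0.36, and against Ni-E in both (−0.53 ± 0.09 and −0.70 ± 0.08). UQCRC2, the partner core protein, passed only against Ni-E, at −0.28 ± 0.10 and −0.38 ± 0.09. UQCR11, a small accessory subunit, did likewise, at −0.53 ± 0.12 and −0.45 ± 0.09, and its UT pair was wide (103 and 63.6 RPKM).

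For complex IV, the cytochrome c oxidase, 1 of 12 members tested was lower than UT in Ni-W and 2 of 13 in HCl3, against a background of 13.6 and 14.3% lower. COX7A2L, a COX7A relative known as an assembly factor of supercomplexes, gave 129.9 and 120.3 RPKM (UT), 153 and 143 (Ni-E), 102 and 92.1 (Ni-W) and 98.2 and 101.6 (HCl3). Its washed-out libraries were all below UT, and Ni-E was the highest pair. It fell by 0.40 ± 0.11 in Ni-W (adjusted P = 0.00138) and by 0.38 ± 0.10 in HCl3 (adjusted P = 0.00056), with window medians of −0.16 and −0.10. COX6B1 was the other member lower in HCl3 (−0.32 ± 0.13, DESeq2 adjusted P = 0.0404), but its libraries overlapped with UT. That call held under 5 of 15 alternatives. In Ni-W COX6B1 was at −0.31 ± 0.14 (DESeq2 adjusted P = 0.0927). COX4I1, COX6A1 and COX8A passed only against Ni-E, at −0.31, −0.32 and −0.36 (Ni-W) and −0.33, −0.43 and −0.30 (HCl3). COX7B, COX7A2 and COX5B passed only in HCl3 against Ni-E, at −0.65, −0.58 and −0.34, and had SEs of 0.30 to 0.57 in Ni-W and HCl3 against UT, whose pair was far apart. COX5A passed in none of the 6 comparisons, with 103 to 122 RPKM over all libraries.

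Isoform pairs showed which forms this line uses. The tissue-restricted forms COX4I2, COX6A2 and COX8C had 0 RPKM in all 8 libraries, and COX7A1, COX7B2 and COX6B2 had at most 0.12, 0.14 and 0.22. Their common counterparts ran from 166 to 221 RPKM for COX4I1, 114 to 169 for COX6A1 and 303 to 508 for COX8A. With ATP5L2, 5 members (COX4I2, COX6A2, COX7B2, COX8C and ATP5L2) were tested in no comparison and 80 in every one. Some members by symbol are not subunits in the usual sense, such as the pseudogenes ATP5EP2 and UQCRBP1, the UQCRH copy UQCRHL, and ATP5S and ATP5SL, now named DMAC2L and DMAC2. Named pseudogenes exist for 47 of the 88 members, and reads with several alignments had been removed before counting, so levels of such members are uncertain.

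Complex V, the ATP synthase, had 5 of 18 members lower than UT in Ni-W and 9 in HCl3, with 13.6 and 14.3% of all genes lower. ATP5B, the catalytic beta subunit, gave 696 and 703 RPKM (UT), 769.97 and 711 (Ni-E), 579.97 and 548 (Ni-W) and 552 and 578 (HCl3). The 4 washed-out libraries were all under UT, whose pair was close. It fell by 0.35 ± 0.09 in Ni-W (adjusted P = 0.00129) and by 0.36 ± 0.08 in HCl3 (adjusted P = 0.000137), with window medians of −0.09 and −0.07. ATP5A1, the alpha subunit that alternates with beta, passed against UT in neither (0.13 ± 0.09 and −0.16 ± 0.08). ATP5C1, the gamma subunit of the central stalk, fell by 0.24 ± 0.10 and 0.34 ± 0.09, and ATP5F1, subunit b of the outer stalk, by 0.38 in both. The ATP5C1 call in Ni-W (DESeq2 adjusted P = 0.0477) held under 3 of 14 alternatives, and that in HCl3 under 9 of 15. ATP5L and ATP5O, subunit g and the stalk subunit OSCP, fell in HCl3 by 0.44 ± 0.14 and 0.38 ± 0.11 and had values of −0.29 and −0.29 in Ni-W, which did not pass. ATP5SL, 1 of the 5 in Ni-W but counted with complex V by its symbol only, was at −0.30 ± 0.11 there (DESeq2 adjusted P = 0.0267). In HCl3 ATP5SL was at −0.20 ± 0.10.

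The 3 genes for subunit c of the proton-carrying ring differed in direction. ATP5G1 gave 286 and 203 RPKM (UT), 245 and 220.1 (Ni-E), 196 and 163 (Ni-W) and 156 and 165 (HCl3), with both washed-out pairs under UT and Ni-E. It fell by 0.49 ± 0.15 in Ni-W (adjusted P = 0.00589) and by 0.67 ± 0.14 in HCl3 (adjusted P = 1.18e-05), while its window medians were −0.00 and 0.02. ATP5G3 was at 68.3 and 65.1 RPKM in UT and at 82.9 and 81.0 in Ni-W, a rise of 0.26 ± 0.10 (adjusted P = 0.0296) in a window whose median was 0.46. ATP5G2 fell in HCl3 (−0.27 ± 0.11, DESeq2 adjusted P = 0.0366) and was at −0.25 ± 0.12 in Ni-W, which did not pass. Its HCl3 call held under 6 of 15 alternatives.

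**Figure D4:**
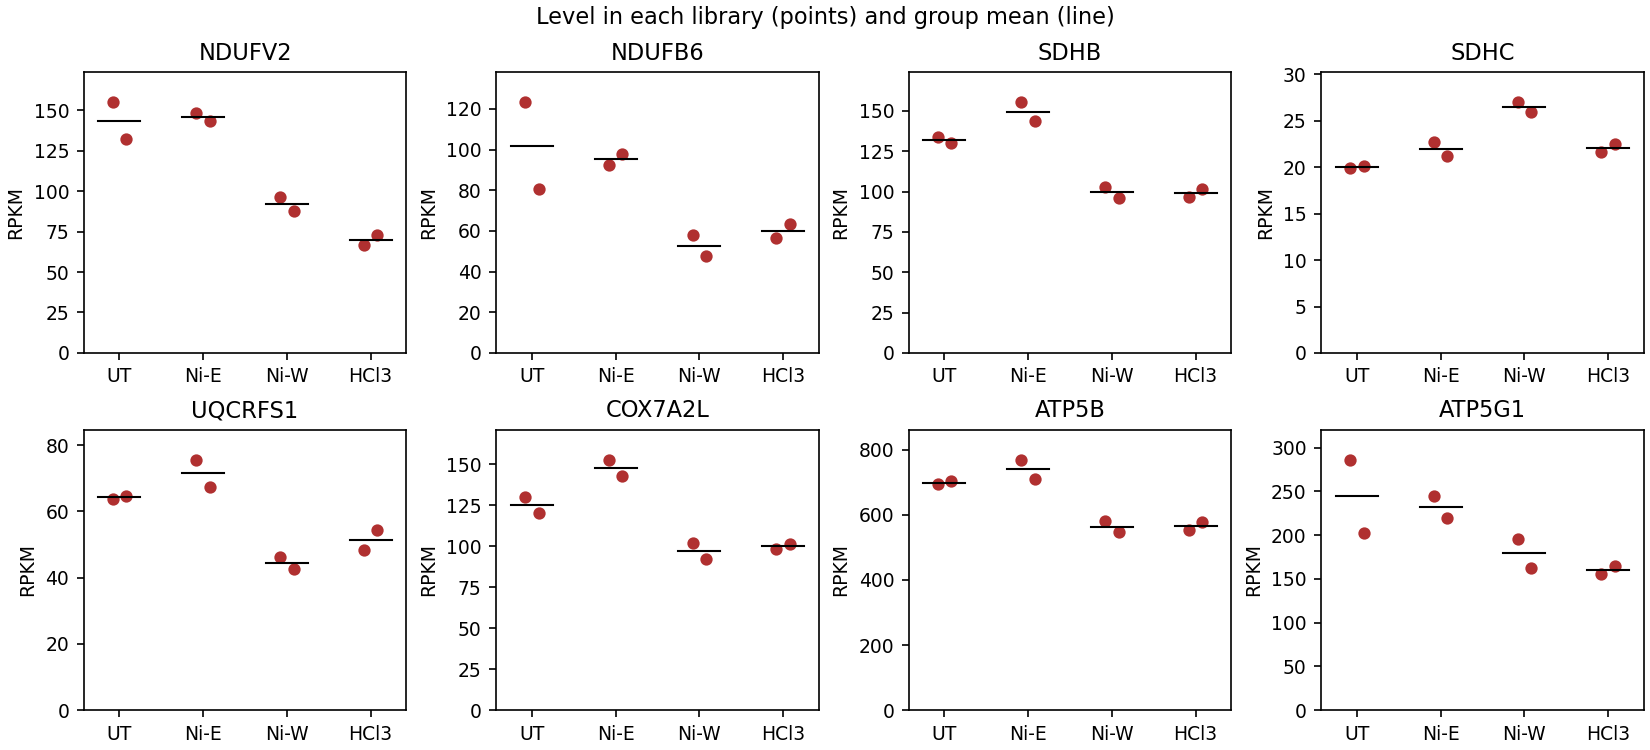
Level in RPKM of 8 members by group, with each library as a point and the group mean as a line, on axes that start at 0. In 7 of the panels both washed-out groups lie under UT, and SDHC is highest in Ni-W.

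HCl3 and Ni-W were compared directly, since their treatment text is the same. Of 81 members tested, 7 were lower and 3 higher in HCl3 (8.64 and 3.7%, background 8.1 and 8.45%), and 0 reached 1.5-fold (background 4.77%). In either direction the background was 16.6%. DESeq2 gave 17 members at an unadjusted P under 0.05, for which no background share is given. The libraries of 18 members lay wholly below Ni-W and those of 9 wholly above (background 28.4 and 32.6%). The fit without GC and length trends had 10 lower and 4 higher, with no background share given. The count was 28 without Ni-W replicate 2, 2 without HCl3 replicate 1 and 1 without HCl3 replicate 2. The median was −0.09 against −0.00 over all genes.

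Genes that serve the chain were read in the same fits. The assembly factors, which build the complexes without staying in them, had 21 of 44 lower and 3 higher than UT in Ni-W, and 26 lower and 2 higher in HCl3, beside 1 lower and 2 higher in Ni-E. Over all genes 13.6% were lower and 17.5% higher in Ni-W, 14.3 and 17.1% in HCl3, and 5.52 and 6.08% in Ni-E, and these shares are the background for each list. With GC and length trends removed the counts were 20 lower and 5 higher in Ni-W and 21 lower and 3 higher in HCl3, and without UT replicate 1 they were 14 and 3, and 18 and 3. Without Ni-W replicate 1 the Ni-W count was 8 lower and 0 higher. For this list and those below, counts without an HCl3 replicate are not given. SCO1 and SCO2, copper carriers for complex IV, fell in Ni-W by 0.87 ± 0.11 and 1.04 ± 0.24. In HCl3 they fell by 0.77 ± 0.10 and 0.71 ± 0.21. SCO1 was at 44.3 and 46.4 RPKM (UT) against 25.4 and 25.5 (Ni-W) and 27.6 and 27.7 (HCl3). NDUFAF4, a complex I assembly factor, went from 13.0 and 10.7 RPKM (UT) to 6.33 and 6.80 (Ni-W) and 6.24 and 6.21 (HCl3), falls of 0.89 ± 0.15 and 0.98 ± 0.15. C11orf83, listed under the older name of the complex III factor UQCC3, fell by 0.86 ± 0.18 in Ni-W.

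Among the regulators of mitochondrial biogenesis, 7 of 13 were lower and 1 higher in Ni-W, and 9 were lower and 0 higher in HCl3, while 0 of 12 passed in Ni-E (edgeR also gave 0). The background was 13.6 and 14.3% lower in Ni-W and HCl3, and 11.6% in either direction in Ni-E. With GC and length trends removed, 6 were lower and 2 higher in Ni-W and 7 lower and 1 higher in HCl3. Without UT replicate 1 there were 5 and 7 lower, and without Ni-W replicate 1 the Ni-W count was 2 lower. PPARGC1B, a coactivator of the PGC-1 family, gave 0.70 and 0.86 RPKM (UT), 0.22 and 0.28 (Ni-W) and 0.35 and 0.38 (HCl3). It fell by 1.68 ± 0.26 in Ni-W and by 1.15 ± 0.23 in HCl3. ESRRA, a nuclear receptor that partners with it, fell by 0.76 ± 0.15 and 0.57 ± 0.14, and TFAM, which packages mitochondrial DNA, by 0.46 ± 0.11 and 0.56 ± 0.10. TFB1M, a methyltransferase of the mitochondrial ribosomal RNA, fell by 0.61 ± 0.14 and 0.48 ± 0.13. The 1 higher gene, PPARGC1A, was at 0 RPKM in both UT libraries and at 0.09 in both Ni-W libraries, and no fold is given for it.

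The remaining lists moved in both directions. Of 9 HIF-linked mitochondrial genes, 2 were higher in Ni-E, 4 higher and 2 lower in Ni-W, and 5 higher and 2 lower in HCl3 (background 6.08, 17.5 and 17.1% higher, respectively). Removal of the GC and length trends gave 5 higher in Ni-E. PDK1 is a kinase that turns off pyruvate dehydrogenase. It gave 2.83 and 2.53 RPKM (UT), 3.96 and 3.6 (Ni-E), 6.33 and 6.36 (Ni-W) and 8.28 and 7.44 (HCl3). PDK1 rose by 1.26 ± 0.15 in Ni-W and 1.51 ± 0.14 in HCl3, and was at 0.43 ± 0.18 in Ni-E, which did not pass. BNIP3, a receptor for the removal of mitochondria, rose by 0.87 ± 0.13 in Ni-W and by 1.20 ± 0.12 in HCl3. It was already higher than UT in Ni-E (0.47 ± 0.14, DESeq2 adjusted P = 0.0105). The other gene higher in Ni-E was LONP1 (0.51 ± 0.12). BNIP3L, another such receptor, rose by 0.46 ± 0.11 in Ni-W and 0.67 ± 0.10 in HCl3, and was at −0.03 ± 0.12 in Ni-E. HIGD2A fell by 0.43 ± 0.14 in Ni-W and 0.47 ± 0.13 in HCl3, but its UT pair was wide. It gave 157.63 and 122.64 RPKM (UT), 118.34 and 95.15 (Ni-W) and 99.56 and 111.02 (HCl3). Of 14 genes of the TCA cycle, 3 were higher and 4 lower in Ni-W, and 2 higher and 5 lower in HCl3 (background 17.5 and 17.1% higher, 13.6 and 14.3% lower), led by IDH2, which makes NADPH in the matrix and rose by 1.48 ± 0.15 in Ni-W. IDH2 gave 9.04 and 7.39 RPKM (UT), 11.97 and 14.64 (Ni-E), 25.2 and 22.2 (Ni-W) and 23.1 and 24.9 (HCl3). It was already higher than UT in Ni-E (0.63 ± 0.17, DESeq2 adjusted P = 0.00513). In Ni-E 1 TCA cycle gene was higher and 1 lower (background 6.08 and 5.52%). With GC and length trends removed, 6 TCA cycle genes were higher and 3 lower in Ni-W. IDH3B, a subunit of the NAD-linked enzyme, fell by 0.57 ± 0.10 in Ni-W, while OGDH and SUCLA2, of the next steps, rose by 0.54 ± 0.10 and 0.48 ± 0.12. Of 14 electron carrier genes, 3 were higher in Ni-E, 2 were lower and 1 higher in Ni-W, and 2 were lower in HCl3, with the same backgrounds. The fit without GC and length trends gave 2 higher (Ni-E), 3 higher and 2 lower (Ni-W), and 2 higher and 2 lower (HCl3). COQ3, of ubiquinone synthesis, fell by 0.71 ± 0.14 and 1.07 ± 0.14, and CYC1, cytochrome c1 of complex III, rose by 0.40 ± 0.11 in Ni-E and fell by 0.38 ± 0.11 in Ni-W. ETFA, of the electron transfer flavoprotein, rose by 0.30 ± 0.10 in Ni-W.

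**Figure D5:**
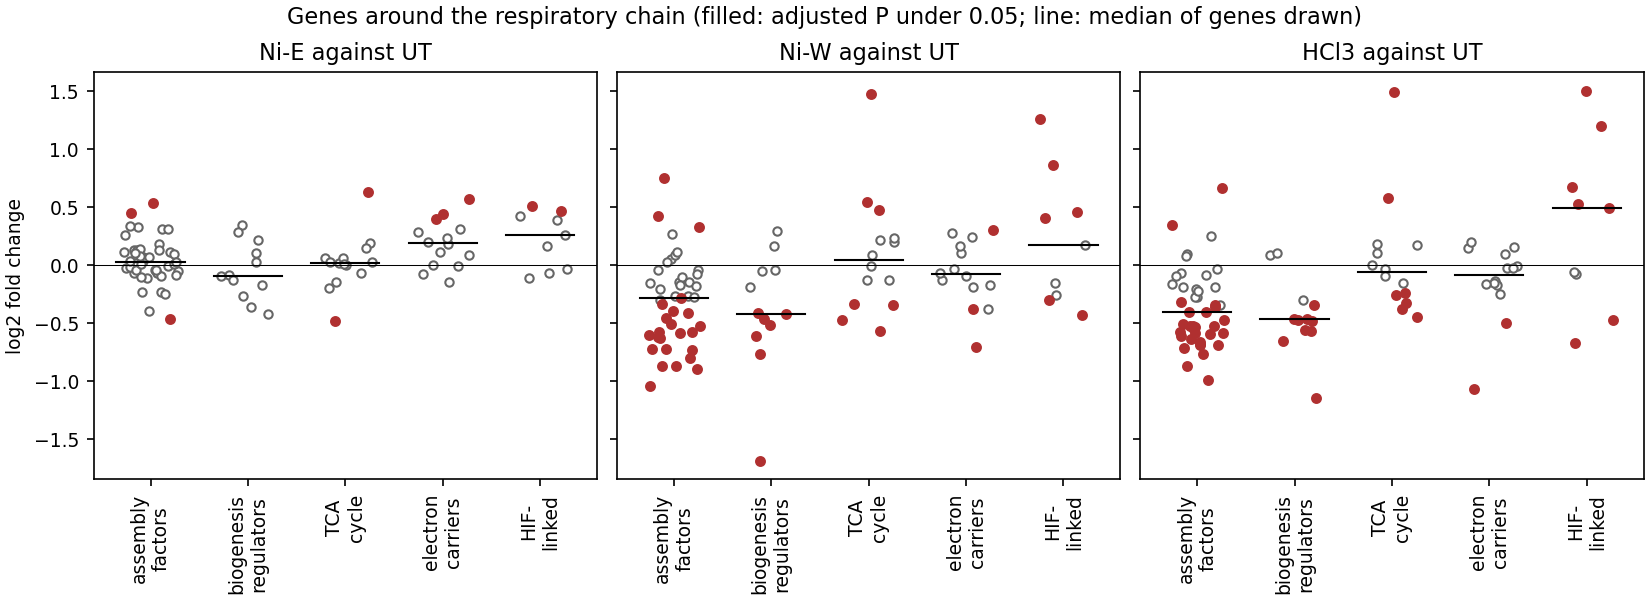
Log2 fold change against UT of genes around the respiratory chain with a mean normalised count of at least 50, by list and comparison; filled points passed an adjusted P of 0.05 (DESeq2) and lines are medians of the genes drawn. Filled points of the assembly factors and biogenesis regulators lie mostly below 0 in Ni-W and HCl3, and the HIF-linked genes reach 1.26 and 1.51 (PDK1).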

How the data were processed

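RNA-Seq of 8 BEAS-2B libraries was analysed, with groups and replicates taken from the labels and the repeat suffix. Per the labels and methods, the authors mapped reads to the hg19 genome (STAR 2.4), dropped those with more than 1 alignment, and deposited read counts per RefSeq gene. The deposited RPKM values, which the authors derived from these counts, scale reads to gene length and library size. Whether strand was used in counting was not stated.

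Counts were fitted for each pair of groups with DESeq2 1.42.0 in R 4.3.3 (two-sided Wald test, median-of-ratios size factors, independent filtering, Benjamini-Hochberg adjustment over all genes), with only the 4 libraries of that pair. This follows the study's methods, which call genes at an adjusted P under 0.05 and 1.5-fold; members were counted at an adjusted P under 0.05, and at 1.5-fold apart. Adjusted P values rest on a spread shared across genes, and 2 replicates per group whose separate cultures are not described may differ only technically. Members named are the 2 largest changes per complex and comparison (mean normalised count of at least 50, libraries not overlapping), isoform pairs, catalytic core subunits and up to 4 genes of each list, with a few others chosen after their values were seen. The members and lists were chosen with earlier results of these data known.

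GC content came from GENCODE transcripts, and gene length was derived by dividing counts by RPKM. Fixed chromosome bins of 10 Mb used genes outside the members with a mean normalised count of at least 50. Alternatives were edgeR 4.0.16 (TMM, quasi-likelihood), limma 3.58.1 on log2-transformed RPKM with a pseudocount of 1 or 0.1, TMM size factors, all 8 libraries in one fit, a minimum mean count of 10, thinning to the smallest total, the repeat suffix as a block, GC and length trends removed alone and with the block, and each replicate left out, where the lone library is assumed to vary like the other group. The crossed block, and all alternatives for the pathway lists, were added after the data were seen. Background shares come from the pairwise DESeq2 fits only, so none stands beside a count under an alternative. Scripts were tested on simulated data, and figures were drawn with matplotlib 3.10.9. Chromatin data and other cell lines were not analysed here, and the values of 1 member are not reported here.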

Additional observations from a re-analysis of the deposited data

Results flagged for a closer look

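HCl3 and Ni-W carry the same treatment text, and when they were tested against each other 10 members passed an adjusted P of 0.05 (DESeq2, n = 2 libraries per group), 9 of which are described here. They were 12.3% of the 81 tested, below the 16.6% of all genes called. In complex I, NDUFV2 (−0.42 ± 0.09, log2), NDUFB4 (−0.36 ± 0.10) and NDUFB3 (−0.30 ± 0.11) were lower in HCl3, while NDUFA10 (0.41 ± 0.09) and NDUFS1 (0.24 ± 0.08) were higher. In complexes II and III, SDHC (−0.28 ± 0.08) and UQCRB (−0.31 ± 0.11) were lower in HCl3. In complex V, ATP5A1 (−0.29 ± 0.07) was lower and ATP5D, the delta subunit, was higher (0.49 ± 0.11). ATP5D was at 50.03 and 58.3 RPKM in Ni-W and at 70.7 and 81.9 in HCl3, so its pairs did not overlap. The medians of the other genes in the 10 Mb bins lay in the same direction for NDUFA10 (0.43), NDUFB4 (−0.24), SDHC (−0.25), ATP5A1 (−0.29), NDUFV2 (−0.12) and ATP5D (0.12), and at 0.01, 0.01 and 0.02 for NDUFS1, NDUFB3 and UQCRB. The part of the bins in these differences was not tested. None of the 10 calls held under each alternative run, and the number of calls was 28 without Ni-W replicate 2, 2 without HCl3 replicate 1 and 1 without HCl3 replicate 2.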

How the results depend on the processing

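Counts of members past an adjusted P of 0.05 in the DESeq2 fits were 1 (Ni-E against UT), 15 (Ni-W against UT), 25 (HCl3 against UT), 41 (Ni-W against Ni-E), 51 (HCl3 against Ni-E) and 10 (HCl3 against Ni-W). With a 1.5-fold threshold they became 1, 2, 3, 5, 6 and 0. In one fit of all 8 libraries Ni-E against UT gave 5, Ni-W against UT 28, HCl3 against Ni-E 31 and HCl3 against Ni-W 6. For limma on log2(RPKM + 1) the 6 counts were 0, 9, 8, 20, 48 and 1, and on log2(RPKM + 0.1) they were 0, 7, 7, 19, 45 and 0, the zeros beside 9, 8 and 11 members at an unadjusted P under 0.05 (Ni-E against UT at both settings and HCl3 against Ni-W). Thinning left 0 in Ni-E against UT, with 6 at an unadjusted P under 0.05.

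GC and length trends removed gave 4 in Ni-E against UT (2 higher, 2 lower) and 32 in HCl3 against Ni-E, with medians of −0.0888 (Ni-W against Ni-E) and −0.1179 (HCl3 against Ni-E). COX6A1, Ni-W against UT, reversed to 0.227 and with the block to 0.2278, and COX6A1, HCl3 against UT, to 0.2764 and 0.2784. NDUFA4, HCl3 against UT, ran from −0.3058 without UT replicate 2 to a reversed 0.3694 without UT replicate 1. The cause was not tested.

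The replicate block changed the counts to 0 (Ni-E against UT), 39 (Ni-W against UT), 15 (HCl3 against UT) and 5 (HCl3 against Ni-W). With GC and length trends removed as well, the block gave 0, 23, 11, 19, 22 and 8 in the 6 comparisons, with medians of −0.0918 (Ni-W against Ni-E) and −0.1214 (HCl3 against Ni-E). Same-suffix deviations had an r across genes between −0.159 and 0.2218, the highest being in Ni-W against UT. Each r rests on 2 replicates per group, so it cannot decide whether libraries with the same suffix were handled together. The crossed block, added after the data were seen, gave 25 in HCl3 against UT, 36 in Ni-W against Ni-E and 0 in Ni-E against UT, the 3 zeros there (block, block with trends removed, crossed block) standing beside 3, 4 and 8 members at an unadjusted P under 0.05.

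Leaving out 1 replicate moved the counts over 0 to 19, 2 to 30, 2 to 59, 18 to 40, 16 to 52 and 1 to 28, and the medians over −0.1436 to 0.1544, −0.4461 to −0.0203, −0.4827 to −0.1355, −0.3764 to −0.1561, −0.3785 to −0.2519 and −0.1704 to 0.0261, in the same order. The 19 came without UT replicate 2 and were all lower, and the 6 without UT replicate 1 were all higher. Of 94 called results of named members, 18 kept direction and call under each alternative run. NDUFA4L2, Ni-E against UT, lost its call under 11 of 15 alternatives, thinning among them. Depth limits the members with few reads.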

Other observations

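The 5 members that stood higher in Ni-W than in Ni-E were NDUFA4, NDUFB3, NDUFB4, SDHC and ATP5E, the epsilon subunit of complex V. Of these 5 calls, 0 held under each alternative run, and 1 held in the fit of all 8 libraries. NDUFB3 was at 54.0 and 57.7 RPKM in Ni-E and 85.3 and 69.4 in Ni-W (0.48 ± 0.13, log2, adjusted P = 0.00068, DESeq2), NDUFB4 at 97.9 and 105.3 against 136 and 113 (0.31 ± 0.12, adjusted P = 0.0189), and ATP5E at 276 and 282 against 429 and 309. Other genes in the 10 Mb bins of the 5 members had medians between 0.21 and 0.47, and those around the 8 members that stood lower than Ni-E under each alternative run had medians between −0.73 (NDUFB6) and 0.19 (UQCRFS1). These values are a description and were not tested.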
